A study of Mus musculus with 8 samples.

Results

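Cytosolic ribosomal protein genes, the nuclear genes for the proteins of the 40S and 60S ribosomal subunits, were followed through the input and HA libraries of young and old mouse MII oocytes. Members were taken by gene symbol, namely symbols that begin with Rpl or Rps and go on with a protein number or with p0 to p2 or a, with an optional a, l, x or l1 at the end. Pseudogenes, the Rps6k kinases and mitochondrial ribosomal protein genes do not have such symbols. This gave 64 of the 10891 genes in the deposited tables. Of these, 63 were among the 10530 genes of the input table, 31 were among the 8898 genes of the HA table, and 30 were in both. Rplp1 had a row in the HA table alone.

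The study asked how maternal age alters ribosome loading of mRNA in mature oocytes. Each of 4 pools held 200 MII oocytes, 2 pools from young females (1 month) and 2 from old females (12 to 15 months, retired breeders). All females were C57BL/6 mice of the RiboTagF/F;Zp3-Cre genotype, had received 5 IU PMSG and 10 IU hCG 48 h later, and gave their oocytes 13 h after hCG. In these mice a Cre driven by the oocyte-specific Zp3 promoter switches Rpl22, itself a member of the family described here, to an HA-tagged form, so that young and old oocytes alike carry tagged ribosomes. A share of 10% of each lysate gave the input library (total mRNA), and HA antibody precipitation of the remainder gave the HA library (ribosome-bound mRNA), so that there are 8 libraries. Oocytes were pooled before lysis, and nothing in the labels ties a young to an old pool.

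The deposited values are CPM, reads on a gene relative to library size, after TMM scaling, set separately for input and HA. They were whole multiples of 1 read in each library, and between 37817382 and 60052814 reads were recovered per library. A count of 3 reads, used here as the floor, was worth 0.0388 to 0.111 CPM in HA and 0.0435 to 0.0788 CPM in input libraries, and covers counting error only. All 10 oocyte markers that were looked up had rows in both tables, with a sum of 8794 to 9905 CPM in input and of 11071 to 17644 CPM in HA. Of 15 cumulus and granulosa cell markers, 11 had rows in the input table, with summed levels of 158 and 332 CPM in old and of 249 and 331 CPM in young pools. In HA, 5 of these 15 had rows, with summed levels of 144 and 92.4 CPM in old and of 201 and 210.3 CPM in young pools. Amh, Foxl2, Cyp11a1 and Ptx3 were in neither table, as were all 7 blood and immune markers. The part of somatic RNA in the levels of ribosomal protein genes was not tested. In pools of this kind, fewer cells of a type and less RNA per cell cannot be told apart.

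Each ribosome holds a single copy of most of these proteins, and their mRNAs are among the most abundant in growing cells. The oocyte builds its store of ribosomes while it grows, and by meiotic maturation transcription is silent, so that the mRNAs present in an MII oocyte are those kept from growth. In somatic cells ribosomal protein mRNAs form the main class of TOP mRNAs, which begin with a C followed by a run of pyrimidines, the terminal oligopyrimidine tract. Their loading onto ribosomes is switched on and off together by mTOR signalling and the binding protein LARP1.

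The start of the gene is shown for some members named in the results below, since the tract is the element that defines the class. Rps6 is shown as well and is not taken up again. For Rpl32, Rps14, Rplp1 and Rpl29, which are named below, no promoter entry was at hand. Each window of 30 bases runs 5′ to 3′ on the gene's strand, from 15 bases before the RefSeq start onwards, and capitals mark a run of at least 6 C or T that begins with C. The first 4 genes hold such a run, while Rpl22 and Rps15 do not.
Rpl4: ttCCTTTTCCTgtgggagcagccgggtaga
Rps27l: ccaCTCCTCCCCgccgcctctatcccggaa
Rps9: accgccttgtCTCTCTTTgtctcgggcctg
Rps6: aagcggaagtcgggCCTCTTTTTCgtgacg
Rpl22: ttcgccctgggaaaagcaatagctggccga
Rps15: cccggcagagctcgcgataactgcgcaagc
The windows are, in GRCm38.p6 and in the same order, chr9:64173372-64173401 on the plus strand, chr9:66946071-66946100 on the plus strand, chr7:3704026-3704055 on the plus strand, chr4:86857353-86857382 on the minus strand, chr4:152325711-152325740 on the plus strand and chr10:80292416-80292445 on the plus strand. For Rps27l and Rpl22 a second RefSeq start has no such run. Promoter entries from RefSeq were at hand for 48 of the 64 members, and 28 of these (58.3%) had the run in the window of at least 1 start. Among all 27025 genes with an entry the share was 25.5%, and among the 7998 of these that are in the deposited tables it was 27.7%. A match describes these letters at an annotated start and does not show where the mRNA begins in oocytes.

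In total mRNA, ribosomal protein genes were low in all 4 pools. The median of their mean input level was 4.18 CPM, against 18.9 CPM over all genes of the input table, and 52 of 63 members had a mean under 10 CPM. Means under 5 CPM were found for 61.9% of members and for 23% of all genes. Ribosomal protein mRNAs are short, with a median transcript of 969.5 bases against 3210.0 bases over all genes. Per kb of transcript, the median input level of members was 4.25 CPM against 6.45 CPM over all genes, and 40.1% of genes were at or below the members' median. Together, the 63 members took 0.0611% and 0.0535% of the input table in old and 0.0775% and 0.0522% in young pools. Large subunit genes (39 members, median 4.21 CPM) and small subunit genes (24 members, median 3.55 CPM) had close medians. Members with the pyrimidine run had a median input level of 4.2 CPM (28 members), and those with an entry but without it of 3.55 CPM (20 members).

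**Figure D1:**
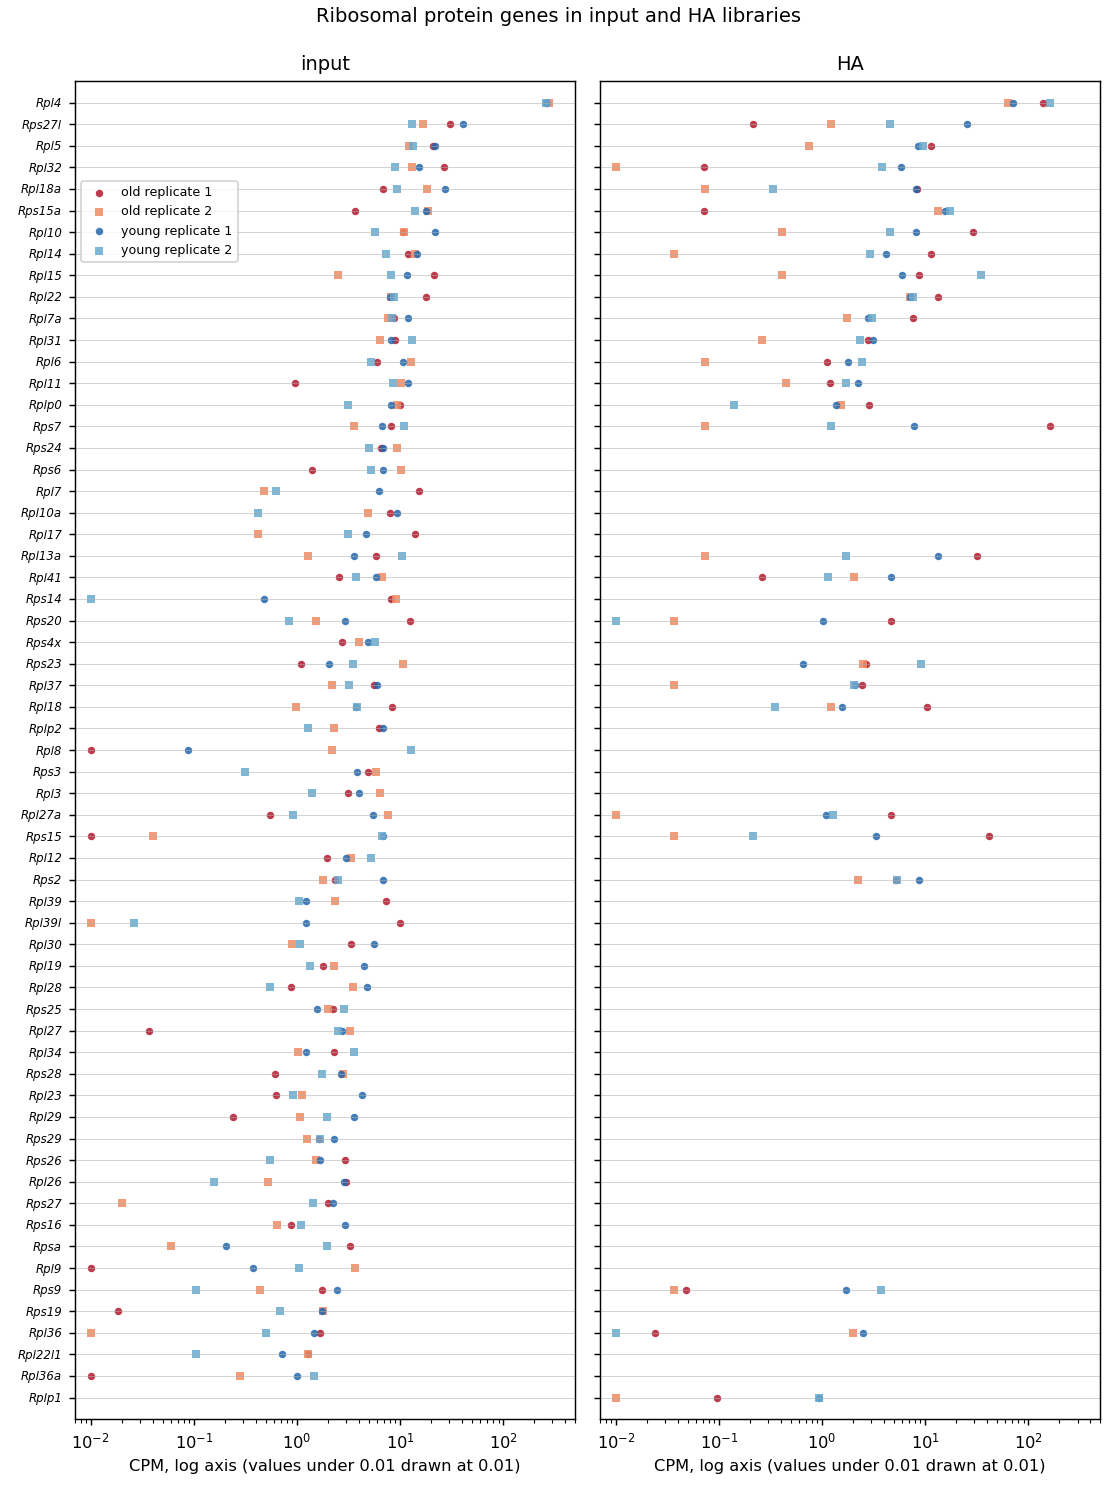
CPM of the ribosomal protein genes shown by name on a log axis in the 4 input libraries (left) and the 4 HA libraries (right), with genes in order of mean input level, circles for replicate 1 and squares for replicate 2, red for old and blue for young. Rpl4 stands apart at 260.0 to 277 CPM in input, and most other genes lie between 1 and 20 CPM, with the points of old replicate 2 often farthest to the left in HA.

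Rpl4 was the exception. This protein of the large subunit, which reaches with a long loop into the peptide exit tunnel, had input levels of 267 and 277 CPM in old and of 260.0 and 260.1 CPM in young pools. These 4 values lie closer together than those of other members, and Rpl4 alone made up 38.5% to 49.5% of the summed input level of the family. Its mean of 266 CPM placed it at the 92.7th percentile of the input table. Per kb of transcript its input level was 173 CPM, and that of the next member, Rps27l, was 43.7 CPM. The gene (chr9:64173375-64178666, plus strand) holds 5 small nucleolar RNA genes, the highest number among the members, and reads were counted over whole genes. A snoRNA gene lay inside 23 of 64 members and inside 3.4% of all genes. The part of intronic or snoRNA reads in the level of Rpl4 was not tested.

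Paralogs and their parents differed from pool to pool. Rps27l, a paralog of Rps27 that is known as a p53 target, had input levels of 30.3 and 16.7 CPM in old and of 40.7 and 12.9 CPM in young pools. Rps27 itself was at 2.02 and 0.0201 CPM in old and at 2.26 and 1.42 CPM in young pools, with 1 read in old replicate 2. Rpl39l, known from male germ cells, had 10.0 CPM in old replicate 1 and 1.22 CPM in young replicate 1, and at most 1 read in both of the other input libraries. Its parent Rpl39, a small protein at the exit tunnel, had 7.33 and 2.35 CPM in old and 1.22 and 1.05 CPM in young pools. Per kb of transcript, the mean input level was 43.7 CPM for Rps27l and 3.12 CPM for Rps27, whereas it was 3.5 CPM for Rpl39l and 4.88 CPM for Rpl39. Per kb, the lowest members were Rpl9 with 0.474 CPM and Rpsa, which in addition to its place in the small subunit is known as a laminin receptor, with 0.709 CPM. Lengths are those of the longest annotated coding transcript, 2690 bases for Rpl9 and 1938 bases for Rpsa, and the rank depends on them. Without division by length the lowest mean input level was that of Rpl36a (0.682 CPM), against 1.27 CPM for Rpl9. Rpl9 had no reads in old replicate 1 and 3.67 CPM in old replicate 2, and Rpsa had 3.29 and 0.0602 CPM in the same libraries.

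Ribosomal protein genes are known for their many processed pseudogenes, and reads that fit several places can be lost in counting. Of the 36-base words in a member's longest coding transcript, 36 bases being the shortest read kept, a median of 50.1% was found in no other annotated gene, against 99.5% over all genes. Under 50% of words were unique in 32 of 64 members and in 5.23% of all genes. With 75-base words the medians were 59.7% and 100.0%. Across 63 members, Spearman's rho between the unique share and the input level per kb was -0.17, a description across genes that share libraries. The 7 members with at least 90% unique words had a median input level of 4.43 CPM, and the 31 members under 50% had one of 4.32 CPM. Among the 7 are Rps15a and Rps20, whose longest coding transcripts have 5179 and 3706 bases, against a median of 969.5 bases over members. The unique share depends on the transcript taken, so this grouping cannot show how shared sequence bears on the levels. Some of these 7 overlap no other gene, and among them the mean input levels were 10.7 CPM for Rpl22, 2.82 CPM for Rpl39l, 3.77 CPM for Rpl8 and 13.4 CPM for Rps15a. In HA the corresponding medians were 10.2 CPM for 4 members and 3.72 CPM for 17 members. The part of reads lost to shared sequence in these levels was not tested.

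**Figure D2:**
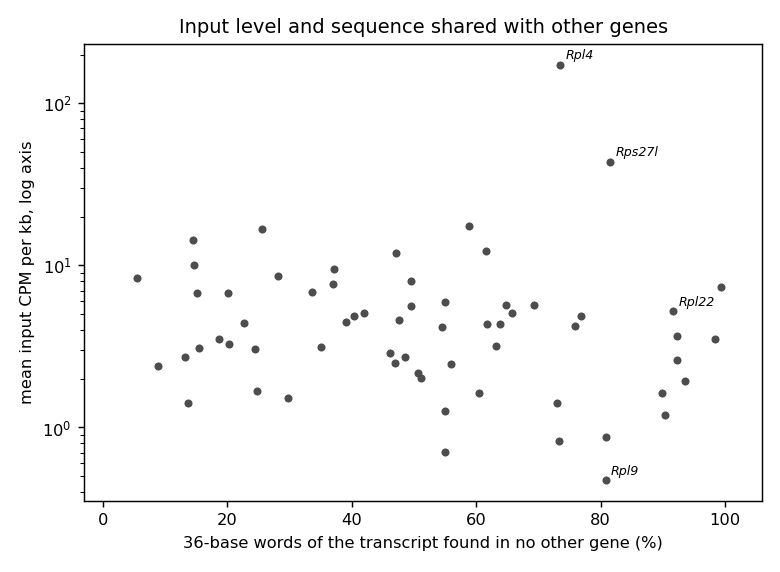
Mean input level per kb of transcript on a log axis against the share of 36-base words found in no other gene, for the 63 ribosomal protein genes of the input table. Rpl4 (173 CPM per kb) and Rps27l (43.7 CPM per kb) lie above the rest, and the other genes show little slope over the range of unique shares (Spearman's rho -0.17 across the 63 genes).

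In ribosome-bound mRNA, fewer members were recovered. Of the 63 input members, 30 (47.6%) had a row in the HA table, against 81.1% of all input genes. A row needs at least 1 CPM before scaling in at least 2 libraries, so the share depends on the level. With a mean input under 5 CPM, 11 of 39 members (28.2%) and 41.7% of all genes had an HA row. With 5 to 10 CPM, 8 of 13 members (61.5%) and 71% of all genes had one. From 10 to 50 CPM, all 10 members and 95.1% of genes had one. The lower share in the family was thus found below 10 CPM, and 33 members cannot be followed into HA. The 31 members of the HA table had a median HA level of 3.81 CPM, against 20.6 CPM over all genes of that table.

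Old replicate 2 stood apart in HA, and every HA value below has to be read with this in view. The 31 members summed to 551 CPM in old replicate 1, to 101 CPM in old replicate 2, and to 230.0 and 289 CPM in the young pools. Without Rpl4 the sums were 412, 38, 159 and 129 CPM in the same order. The 2 old pools therefore lie on either side of both young pools. Old replicate 2 was the lowest HA library for 22 of 31 members (71%) and for 35.5% of all genes, and 14 of 31 members (45.2%) had at most 3 reads there, against 14.9% of all genes. Old replicate 1 was above old replicate 2 for 26 of 31 members, with a median difference of 1.60 on the log2(CPM + 1) scale, whereas for all genes the median was 0.02. In the input libraries of the same pools this median was 0.10 for members, and 33 of 63 were higher in replicate 1. The young input libraries also differed, with 47 of 63 members higher in replicate 1 by a median of 0.56, against 0.03 for all genes.

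**Figure D3:**
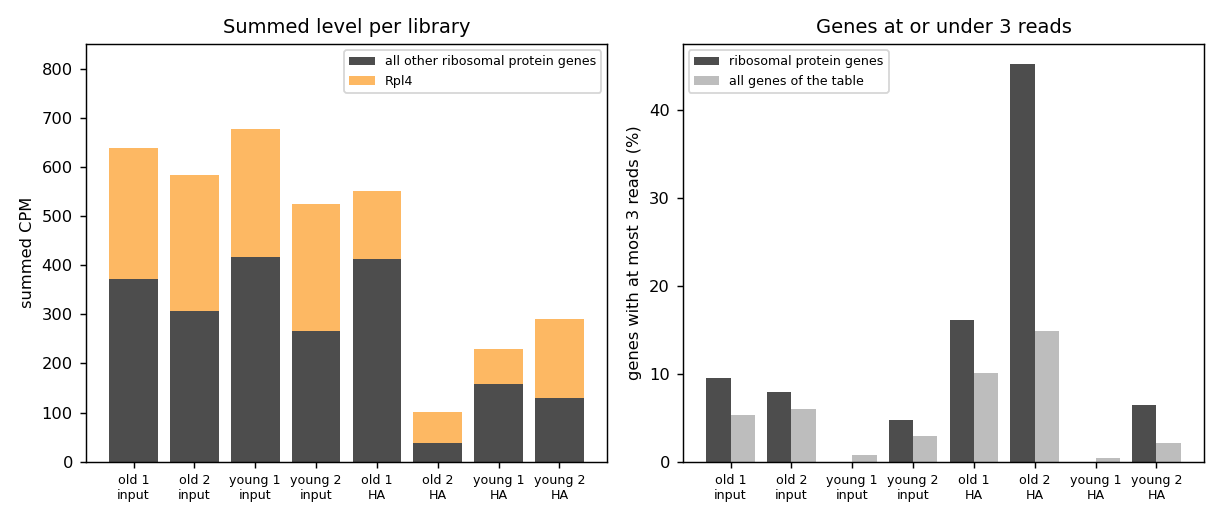
Left, summed CPM of the ribosomal protein genes in each library, with Rpl4 in orange and all others in dark grey; right, the percentage of these genes (dark) and of all genes of the table (light) with at most 3 reads. The old replicate 2 HA library has the lowest sum (101 CPM) and the highest share at or under 3 reads (45.2%, against 14.9% of all genes).

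Some members were high in the HA library of old replicate 1 alone; those named here were chosen after their values were seen, except Rps15. Rps7 had 161 CPM there, and 0.0739, 7.82 and 1.23 CPM in old replicate 2 and the young replicates 1 and 2. Rps15 had 42.0 CPM there and 0.037, 3.3 and 0.212 CPM in the others, although no read was counted on it in the input of the same pool. These single high values carry much of the spread in HA, and 15 of 31 members (48.4%) had their highest HA level in this library, against 27.9% of all genes. Each was set by 1 library and has no replicate within its group.

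Ribosome loading of each gene was described as HA over input within a pool, on the scale log2(HA CPM + 1) minus log2(input CPM + 1). As both tables were scaled separately, only the position of members relative to all genes can be read, and only the 30 members with rows in both tables enter. Their median was below that of all genes by -0.35 in old replicate 1, by -1.46 in old replicate 2 and by -0.51 and -0.53 in young replicates 1 and 2, a mean of -0.71 ± 0.51 (SD, n = 4 pools). In every pool, the members' median thus lay below that of all genes, with the greatest distance in the pool whose HA library was low for the family. Members below the median of all genes numbered 16, 23, 21 and 21 of 30 in the 4 pools. Without old replicate 2 the mean was -0.46, and with a pseudocount of 0.1 CPM it was -1.25. Genes with a mean input of 1 to 20 CPM, the range of 27 of the 30 members, had median values of -0.62, -1.0, -0.35 and -0.35, against -0.40, -2.03, -0.95 and -1.03 for those members. At matched input level members were therefore lower in 3 pools and higher in old replicate 1. Since the 33 members without an HA row are left out, these medians do not stand for the family as a whole.

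**Figure D4:**
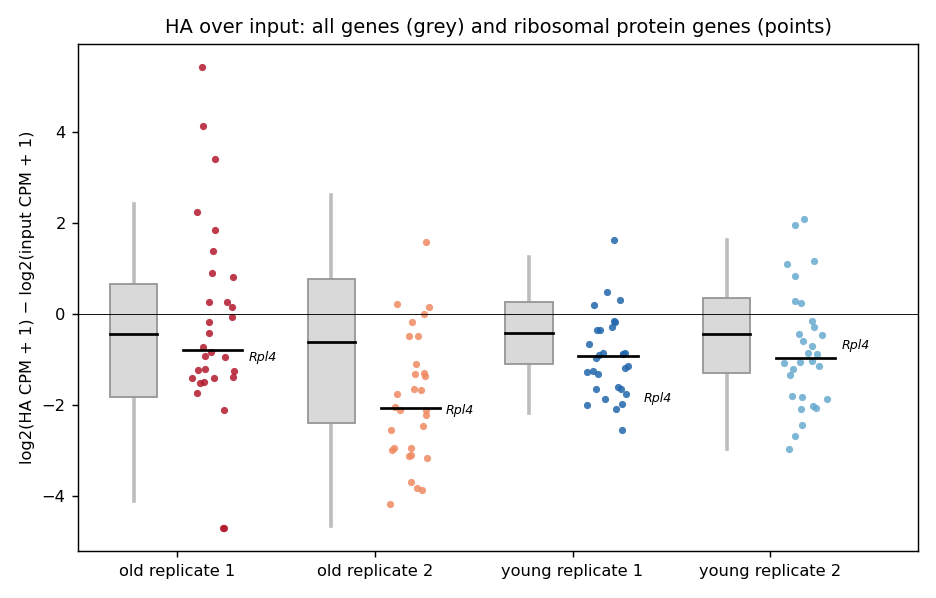
HA over input, as log2(HA CPM + 1) minus log2(input CPM + 1), in each pool for all genes of both tables (grey box for the 25th to 75th, line for the 5th to 95th percentile, bar for the median) and for the 30 ribosomal protein genes (points, bar for the median). The members' median lies 0.35 to 1.46 below that of all genes in the 4 pools and is lowest in old replicate 2 at -2.07.

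Of the 30 members, 10 were below the median of all genes in 4 of 4 pools, which 12.3% of all genes were. Among them were Rpl4, Rpl5, Rpl6, Rpl31, Rpl32, Rpl37, Rplp0, Rps20 and Rps27l. Only 2 members were above it in 4 of 4 pools, which 15.5% of all genes were. On this log2 scale Rpl4 was at -0.94 and -2.11 in old, against -1.86 and -0.69 in young oocytes. Its HA levels were 139 and 63.3 CPM in old and 70.8 and 161 CPM in young pools, so that its input levels were nearly level across pools and its HA levels were not. The 2 lowest means over the pools were those of Rpl32 (-2.69) and Rps27l (-2.42), and the 2 highest were those of Rps2 (0.57) and Rps15 (0.47). For Rps2, a small subunit protein at the mRNA entry, HA over input was 0.90 and 0.23 in old and 0.31 and 0.84 in young pools. For Rps15, a head protein of the small subunit, it was 5.43 and -0.00 in old and -0.86 and -2.67 in young pools, and the high mean came from 1 pool. The spread of Rps15 thus exceeded the differences between most members.

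Old and young pools were compared first in total mRNA. With limma on log2(CPM + 1), 1 member was higher (against 2.71% of all genes) and 1 was lower (against 3.48%) in old oocytes at an unadjusted p under 0.05, which is 3.17% of 63 members, against 6.18% of all genes. No member passed an adjusted p under 0.05 in limma (Benjamini-Hochberg over 10530 genes, 0.00950% of which passed), nor in edgeR's quasi-likelihood or likelihood ratio tests (0.475% of all genes in the latter), and 1 did in DESeq2 (1.08% of all genes). The median difference between old and young was -0.11 for members and -0.03 for all genes, and 38 of 63 members were below 0. Both old pools were above both young pools for 6 members (9.52%, against 16.4% of all genes) and below for 8 (12.7%, against 18.9%). These shares are at or under those of all genes. Quantile normalization moved the median of members to 0.19.

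The member with the highest difference was Rps14, a protein of the small subunit platform, whose gene lies on chromosome 18. Its input levels were 8.25 and 9.13 CPM in old and 0.479 and 0 CPM in young pools, and the groups did not overlap. The log2 difference was 2.99 (SE 0.89, limma adjusted p = 0.778). Rps15 had the opposite pattern, with 0 and 0.0401 CPM in old and 6.79 and 6.7 CPM in young pools. Its log2 difference was -2.93 (SE 0.82, limma adjusted p = 0.778). From the pooled reads, 2 in old and 723 in young libraries, its level was 352-fold lower in old (95% exact binomial interval of 97.2 to 2916, counting error only). DESeq2 on the recovered reads gave an adjusted p of 0.0177 for Rps15, and edgeR's quasi-likelihood test one of 0.805. The call for Rps15 thus depends on the tool, and the HA values above show the gene at 42.0 CPM in a pool where input had no read. The input row of Rps14 rests on the old libraries alone and that of Rps15 on the young ones, so both differences are descriptions.

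Next by p in input were Rpl29 and Rpl36a, both of the large subunit. Rpl29 had 0.239 and 1.06 CPM in old and 3.57 and 1.97 CPM in young pools (log2 difference -1.20, SE 0.81, limma adjusted p = 0.843). Rpl36a had 0 and 0.281 CPM in old and 1.0 and 1.45 CPM in young pools (log2 difference -0.97, SE 0.66, limma adjusted p = 0.845). Neither passed the test, although the groups did not overlap. Both had an input row through the young libraries alone. For Rpl4, the difference of 0.06 (SE 0.26) is less than its SE.

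In ribosome-bound mRNA, 3 of 31 members were lower in old oocytes at an unadjusted p under 0.05 in limma (9.68%, against 10.5% of all genes) and none was higher (against 4.28% of all genes). No member passed an adjusted p under 0.05 in limma, in which 0 of 8898 genes did, nor in edgeR's quasi-likelihood test or DESeq2 (5.71% of all genes in the latter), and 1 passed in edgeR's likelihood ratio test (3.32% of all genes). The median difference was -0.32 for members and -0.14 for all genes, and 22 of 31 members were below 0. Both old pools were below both young pools for 9 members (29%, against 24.7% of all genes) and above for 1, Rplp0 (3.23%, against 17.2%). The median rested on old replicate 2: it was 0.23 without that library and -1.22 without old replicate 1. Quantile normalization gave 0.60, with 0 members higher and 0 lower (against 2.84% and 2.58% of all genes), and rescaling to equal sums gave -0.81, with 0 higher and 5 lower (against 1.26% and 14.4%). With a pseudocount of 0.1 CPM the median of members was -1.06 (all genes -0.28), and in edgeR's tests it was -0.58. With equal sums the median of all genes was -0.68, so that the members' difference from it was -0.14, against -0.19 in the deposited scaling. This difference was 0.66 with quantile normalization, -0.78 with a pseudocount of 0.1 CPM and -0.70 in edgeR's quasi-likelihood test, so it depends on the processing.

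The members described next were at or near the floor in both old HA libraries. A row needs at least 1 CPM before scaling in at least 2 libraries, which only the young libraries met for them. A member as low in the young libraries would have had no row, so their fold differences and ranks are descriptions. Rpl32, a large subunit protein, had 0.0713 and 0 CPM in old and 5.87 and 3.81 CPM in young HA libraries, while its input levels were 26.6 and 13.0 CPM in old and 15.3 and 8.83 CPM in young pools. In HA its log2 difference was -2.47 (SE 0.70, limma adjusted p = 0.297). The pooled reads, 3 in old and 670 in young, gave a level 115-fold lower in old (95% exact binomial interval of 39.2 to 559.8, counting error only). Thus in old pools total mRNA of Rpl32 was detected and its HA reads were at most 3 per library. Rps9, a small subunit protein at the mRNA entry, had 0.0475 and 0.037 CPM in old and 1.71 and 3.74 CPM in young HA libraries. Its log2 difference was -1.78 (SE 0.58, limma adjusted p = 0.297), and from 3 and 344 pooled reads it was 59.1-fold lower (interval of 20.1 to 288).

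The stalk proteins, which bring translation factors to the ribosome, had HA differences of opposite sign. Rplp1 had 0.095 and 0 CPM in old and 0.943 and 0.934 CPM in young HA libraries (log2 difference -0.89, SE 0.38, limma adjusted p = 0.345). Rplp0, the base of the stalk and named here after its values were seen, had 2.85 and 1.52 CPM in old and 1.36 and 0.141 CPM in young HA libraries (log2 difference 0.92, SE 0.71, limma adjusted p = 0.680). Neither difference passed the test. Rps27l was at 0.214 and 1.22 CPM in old and at 25.7 and 4.51 CPM in young HA libraries (log2 difference -2.88, SE 1.33, limma adjusted p = 0.377). The groups did not overlap for Rps27l, but the 2 young values differed as well, as did those of its input. Rplp1 and Rps27l had their HA rows through the young libraries alone.

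The age difference in HA over input, the study's translation efficiency, was compared over the 30 members of both tables. By limma, 1 member was higher (against 2.35% of all genes) and 0 were lower (against 4.33%) in old oocytes at an unadjusted p under 0.05, which is 3.33% of members, against 6.69% of all genes, and none passed an adjusted p under 0.05, in limma or in edgeR's quasi-likelihood test, where 0 of 8537 genes did. With libraries rescaled to equal sums 0 were higher and 2 lower (against 0.996% and 6.29% of all genes). The median difference was -0.30 for members and -0.10 for all genes, and 19 of 30 members were below 0. Both old pools were below both young pools for 9 members (30%, against 20.4% of all genes) and above for 2 (6.67%, against 17.2%). Without old replicate 2 the median of members was 0.27, so its sign rests on that pool. The member called was Rps15 (log2 difference 4.48, SE 1.91, limma adjusted p = 0.745), whose values in the single pools are given above. Next by p were Rpl32 (-3.11, SE 1.38, limma adjusted p = 0.746) and Rps27l (-2.85, SE 1.33, limma adjusted p = 0.746). Rpl32 was at -4.69 and -3.81 in old and at -1.25 and -1.03 in young pools, and Rps27l at -4.69 and -2.99 in old and at -0.65 and -1.34 in young pools. Both were lower in each old than in each young pool, and both had their HA rows through the young libraries alone.

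**Figure D5:**
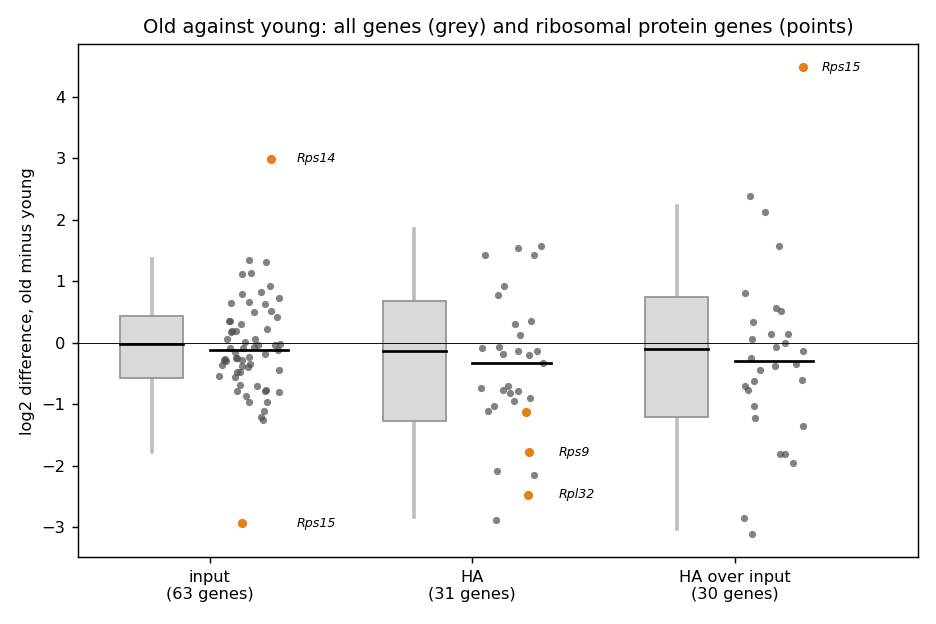
Log2 difference between old and young oocytes in input, HA and HA over input for all genes (grey box for the 25th to 75th, line for the 5th to 95th percentile, bar for the median) and for ribosomal protein genes (points, bar for the median), with members at an unadjusted limma p under 0.05 in orange. Medians of members are -0.11, -0.32 and -0.30, and the points lie mostly within the range of all genes.

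The tagged protein itself was measured as a member. Rpl22, whose mRNA in these oocytes carries the HA sequence, had input levels of 17.9 and 8.16 CPM in old and of 7.98 and 8.65 CPM in young pools, and HA levels of 13.3 and 7.13 CPM in old and of 7.16 and 7.67 CPM in young pools. Old replicate 1 was the highest in both fractions, and the other 3 pools lay close to each other. The log2 difference was 0.50 (SE 0.94) in input, 0.36 (SE 1.45) in HA and -0.14 (SE 1.41) in HA over input, with limma adjusted p-values of 0.972, 0.966 and 0.987. Its paralog Rpl22l1 had 1.29 and 1.28 CPM in old and 0.711 and 0.105 CPM in young input libraries (log2 difference 0.73, limma adjusted p = 0.912). Rpl19, a large subunit gene that the study used as a reference in RT-qPCR, had 1.78 and 2.27 CPM in old and 4.48 and 1.34 CPM in young input libraries (log2 difference -0.25, limma adjusted p = 0.983) and was not in the HA table. The values of Rpl22 give the message of the tagged protein, not how much tagged protein the ribosomes held.

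Other genes of the same pathway were read from fixed lists. Of 16 TOP mRNAs that code for other proteins, mostly translation factors, all 16 were in the input table, with a median level of 26.7 CPM. In input none passed an unadjusted p under 0.05. In HA, 1 of 14 was lower (against 10.5% of all genes), Eef1d, a guanine exchange subunit of elongation factor 1, with 0.19 and 0.111 CPM in old and 5.66 and 2.56 CPM in young libraries (limma adjusted p = 0.297). In HA over input 1 of 14 was lower (against 4.33% of all genes), Tpt1 (TCTP), with HA levels of 2.07 and 3.4 CPM in old and 18.5 and 29.6 CPM in young libraries at input levels of 29.3 to 32.9 CPM (log2 difference -2.77, SE 1.17, limma adjusted p = 0.739). Eef1a1, the elongation factor that brings aminoacyl-tRNA, had log2 differences of -0.10 in input and -0.46 in HA. None of these passed after adjustment, and Eef1d had its HA row through the young libraries alone.

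Of 12 regulators of TOP mRNAs, 10 were in the input table (median 67.2 CPM) and 9 in the HA table, and 0 passed an unadjusted p under 0.05 in the 3 comparisons. Mtor, the kinase, had 181 and 134 CPM in old and 114 and 143 CPM in young input libraries, and Larp1 had 12.1 and 26.7 CPM in old and 19.1 and 23.3 CPM in young ones. In HA, Larp1 was at 1.59 CPM in old replicate 2 and at 13 to 14.8 CPM in the other libraries. Of 35 ribosome biogenesis genes, 27 were in the input table (median 24.4 CPM), where 0 passed. In HA, 3 of 24 were higher in old oocytes at an unadjusted p under 0.05 (against 4.28% of all genes) and 1 was lower (against 10.5%). Polr1a, the catalytic subunit of RNA polymerase I, had 245 and 192 CPM in old and 54.5 and 47.8 CPM in young HA libraries (log2 difference 2.07, SE 0.58, limma adjusted p = 0.297). The others higher in old were Riok1 and Sbds, which act in late steps of 40S and 60S maturation (limma adjusted p of 0.313 and 0.338). The lower gene was Wdr12, a 60S assembly factor (limma adjusted p = 0.297), which had its HA row through the young libraries alone. In HA over input Polr1a was the 1 biogenesis gene of 24 past an unadjusted p under 0.05, higher in old as were 2.35% of all genes (log2 difference 2.23, limma adjusted p = 0.739). Of 5 ribosomal protein symbols outside the naming rule, Fau, Rack1 and Rpl36al were in the input table and Rack1 and Rpl36al in the HA table, and 0 passed in any comparison.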

How the data were processed

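The data are 8 RNA-Seq libraries of 4 MII oocyte pools. By the methods of the study, cDNA was primed with random hexamers and chimeric poly(T) primers. The authors trimmed reads (Trimmomatic 0.36), aligned them with HISAT2 to GRCm38 and counted them per gene with HTSeq without strand (GENCODE M11). They deposited signal values, namely CPM after TMM scaling set separately for HA and input. A minimum of 10 CPM in at least 2 of the libraries is stated by the study, but genes from 1 CPM are in the tables. All columns of values were used (0 left out).

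Old and young were compared by limma 3.58.1 (two-sided, trended eBayes) on log2(CPM + 1), adjusting p by Benjamini-Hochberg across each whole table. A difference on this scale understates the change of genes with low CPM. HA and input of a pool share a lysate and were paired. edgeR 4.0.16 and DESeq2 1.42.0 were run on the reads recovered from the CPM (100.0% whole within 0.01 of a read). The limma tests and edgeR's tests of input and HA were also run on simulated data, whose outcome is not given here. DESeq2 and edgeR's test of HA over input were not. With 2 pools per age, p-values measure the spread between these pools only. Gene positions, lengths and shared words came from GENCODE M21 (99.9% of rows and 64 of 64 members matched), and gene starts from RefSeq on GRCm38.p6.

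Members and gene lists were chosen with earlier results of these data known. Named members are Rpl22, Rpl19, paralogs ending in l or l1 and their parents, the 4 smallest p in each comparison, and the 2 highest and 2 lowest by input level per kb and by HA over input. Members named in the text outside this rule are Rps7 and Rplp0, as said above, Rps6 for its gene start, and Rpl8, Rps15a and Rps20 for their unique words. Rpl5, Rpl6, Rpl31, Rpl37 and Rps20 are outside it too and were named by their HA over input in 4 of 4 pools. Some members are not reported here by name, but counts and medians include them.

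For input, HA and HA over input, alternatives were other pseudocounts (0.1 and 5 CPM), the filter at 10 CPM, libraries rescaled to equal sums, quantile normalization, a replicate block, count tests and leaving out each pool. Software was R 4.3.3 and Python 3.11.15 with matplotlib 3.10.9, scipy 1.17.1, pandas 2.3.3 and numpy 2.4.6.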

Additional observations from a re-analysis of the deposited data

How the results depend on the processing

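In the alternatives that keep all pools, 1 member in input reached an adjusted p under 0.05 by DESeq2 (Rps15, against 1.08% of all genes). In HA, 1 member did by edgeR's likelihood ratio test (against 3.32% of all genes). Why the tools differ was not tested. Without young replicate 2, the HA log2 differences of Rpl32, Rps9 and Rplp1 were -2.73, -1.38 and -0.89. That fit takes its spread from the old libraries alone, where these genes were near the floor, so its p-values are not given. Quantile normalization moved the median of members to 0.19 in input, 0.60 in HA and 0.45 in HA over input. With a pseudocount of 0.1 CPM it was -0.27, -1.06 and -0.49, and in edgeR's quasi-likelihood test -0.18, -0.58 and -0.51, in the same order. When pools were left out in turn, the median ranged from -0.43 to 0.13 in input, from -1.22 to 0.23 in HA and from -0.97 to 0.27 in HA over input. The gap of members to all genes in HA over input was -1.25 with a pseudocount of 0.1 CPM and ranged from -0.84 to -0.46 when pools were left out.

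Counts of members at an unadjusted p under 0.05 moved as follows. In input, 0 were higher and 0 lower with the filter at 10 CPM, which leaves 12 members. In edgeR's quasi-likelihood test 0 were higher (against 2.47% of all genes). In HA, 0 were lower with the filter, which leaves 3 members, and with quantile normalization, 5 were lower with equal sums and in the likelihood ratio test, 2 were higher in DESeq2, and leaving out pools gave 0 to 3 higher and 1 to 4 lower. In HA over input, 0 were higher and 2 lower with a pseudocount of 0.1 CPM (against 1.99% and 6.31% of all genes). The same counts were found with equal sums (against 0.996% and 6.29%) and in the quasi-likelihood test (against 2.33% and 5.11%). With a pseudocount of 5 CPM and with the filter, which leaves 2 members, 0 were higher. Over all genes, counts at an unadjusted p under 0.05 were 651 in input, 1311 in HA and 571 in HA over input. They were 378, 537 and 380 with the filter, 483 in HA with quantile normalization and 491 in HA over input with a pseudocount of 5 CPM.

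Signs turned for some members that passed no test. Rpl4 in input was -0.12 with equal sums and -0.09 with quantile normalization, Rpl19 in input was 0.17 with quantile normalization, Rpl22 in HA was -0.21 with equal sums and Rpl22 in HA over input was 0.53 with quantile normalization. When pools were left out, the log2 difference ranged from -0.83 to 0.76 for Rps27l in input, from -0.86 to 0.37 for Rpl19 in input, from -0.02 to 1.02 for Rpl22 in input, from -0.05 to 0.77 for Rpl22 in HA, from -0.77 to 0.40 for Rpl4 in HA and from -0.83 to 0.34 for Rpl4 in HA over input. A pool left alone in its group was assumed to vary like the other group.

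With equal sums, the median of all genes was -0.19 in input, -0.68 in HA and -0.48 in HA over input. Old and young pools of one replicate number do not share an origin in the labels, and the Pearson correlation of their differences across genes was 0.03 in input and 0.08 in HA. The samples share only a number, and a replicate block left the medians of members at -0.11, -0.32 and -0.30 and changed no count of members. At this depth a member with an HA level under 0.0388 to 0.111 CPM cannot be told from one without reads.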
